A study of Mus musculus with 6 samples.

Results

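The genes described here are those of 5 families of enzymes that act on foreign compounds and on hormones, bile acids and lipids of the body, in RNA from the epithelial fraction of the mouse colon. They were taken by symbol from the comparison table that the authors deposited: cytochrome P450s of families 1 to 4 (Cyp), UDP-glucuronosyltransferases (Ugt), glutathione S-transferases with their microsomal relatives (Gst and Mgst), sulfotransferases (Sult) and carboxylesterases (Ces), without the 2 pseudogenes that matched. This gave 76 of the 15138 genes in that table, with 28 Cyp, 10 Ugt, 22 Gst, 7 Sult and 9 Ces genes. The knockout group held 3 libraries from mice labelled Lingo3-/-, and the wild type group held 3 libraries, all from mice aged 2 months kept without treatment. The Lingo3 protein spans the membrane and carries leucine-rich repeats. Strain, sex and the design of the allele are not stated in the labels. Whether each library came from its own animal is not stated either, so a p-value here speaks of the spread of these libraries, which may be only technical. The protocol text of every library names a wash with EDTA and DTT to free the cells, but the cell type label names DTT for wild type replicate 1 only and EDTA alone for the other 5 libraries. Total RNA was depleted of ribosomal RNA and made into stranded libraries.

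Enzymes of this kind act in sequence. P450s oxidise a compound with electrons passed on by P450 reductase, and carboxylesterases cleave its ester or amide bonds. Transferases then attach glucuronic acid, glutathione or sulfate, and membrane pumps export the conjugate. Most of these genes lie in tandem arrays of close paralogs, and in the gut and liver their transcription is set in part by sensors such as the pregnane X receptor, the aryl hydrocarbon receptor and Nrf2.

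The libraries held 11868000 to 17200931 counts over genes in knockout and 25010618 to 28029583 in wild type, and transcripts of the mitochondrial genome made 34.7 to 36.3% of them in knockout and 45.3 to 48.4% in wild type. Levels are given as CPM, read counts relative to the size of the library, after scaling with TMM factors, which are meant to correct for such differences in composition. Lingo3 itself had 2, 0 and 1 counts in the knockout libraries and 3, 3 and 1 counts in the wild type libraries, too few to check the genotype. All 10 epithelial marker genes passed the filter on low counts, with a sum of 6830.5 to 8281 CPM in knockout and 5806 to 6983 CPM in wild type. Of 10 hepatocyte markers 3 passed the filter, and 3 others (Fgb, Fga and Serpina1a) had no count in any library. The 10 summed to 42.7 to 50.5 CPM in knockout and 38.8 to 52.4 CPM in wild type.

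All 76 genes passed the filter on low counts. Log2 fold changes are knockout over wild type, with ± for their standard error. At an adjusted p under 0.05 (edgeR's quasi-likelihood test, Benjamini-Hochberg over 16856 genes) 15 of them were higher in knockout, 4 were lower and 57 did not pass. That is 19.7% higher and 5.26% lower, beside 9.43% and 5.97% of all genes tested. The median log2 fold change of the 76 genes was 0.0089, and 38 values were positive and 38 negative. Counts and medians are given by family. Of 22 Gst genes 8 rose and 0 fell (median log2 fold change 0.20), of 7 Sult genes 2 rose and 0 fell (0.020), of 9 Ces genes 2 rose and 0 fell (0.28), of 10 Ugt genes 1 rose and 0 fell (-0.27), and of 28 Cyp genes 2 rose and 4 fell (-0.18). With library totals as the only scaling, which raised the median of all genes by 0.28, the Cyp median turned to 0.10, and with upper-quartile factors the Sult median turned to -0.054 and the median of the 76 genes to -0.061. Single libraries moved these medians too. Leaving out 1 library, the Sult median ran from -0.11 (without knockout replicate 3) to 0.26 (without wild type replicate 3), the Ces median from 0.13 (without wild type replicate 1) to 0.31 (without knockout replicate 1), and the Cyp median from -0.37 (without knockout replicate 1) to -0.13 (without knockout replicate 2). The Gst median stayed between 0.16 and 0.29. No test between families was made.

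The counts rested in part on single libraries. Leaving out knockout replicate 1 gave 13 higher and 4 lower, beside 9.12% and 6.04% of all genes. Leaving out knockout replicate 2 gave 9 and 1 (5.05% and 2.66%), and leaving out knockout replicate 3 gave 8 and 0 (3.98% and 2.31%). With all libraries, 11 of the 76 genes were lower at an unadjusted p under 0.05. The share of all genes at that threshold was not counted, here or where it is used below. Leaving out wild type replicate 1 gave 13 and 4 (10% and 5.12%), wild type replicate 2 gave 11 and 6 (6.56% and 3.50%), and wild type replicate 3 gave 12 and 1 (5.61% and 4.46%), all by edgeR. The shares of all genes called were also below those with all libraries when knockout replicates 2 or 3 or wild type replicates 2 or 3 were left out. DESeq2 gave 14 higher and 9 lower, beside 9.51% and 7.28% of the genes it tested, and limma-voom 14 and 6, beside 8.92% and 5.51%. By the authors' deposited table, 14 of the 76 genes were higher and 7 lower at an adjusted p under 0.05, beside 10% and 6.72% of all its genes, and 18 were called in the same direction by both that table and edgeR.

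In bulk RNA fewer cells of a type and less RNA per cell cannot be told apart. Markers of other cells differed between the same libraries: 10 of 12 T cell genes were lower, with sums of 112 to 198 CPM in knockout and 321 to 372 CPM in wild type, and 4 of 10 genes of B and plasma cells were lower, with sums of 37.6 to 43.6 CPM in knockout and 61.5 to 119 CPM in wild type. Of 10 cell cycle genes 5 were higher, with sums of 459 to 592 CPM in knockout and 346 to 392 CPM in wild type. Of 10 goblet cell genes 3 were higher, with sums of 18527 to 20798 CPM in knockout and 13678 to 16614 CPM in wild type. Of 12 genes of absorptive colonocytes 2 were higher and 1 was lower, with sums of 4315 to 5933 CPM in knockout and 5188 to 6101 CPM in wild type. Of 11 tested genes of fibroblasts, muscle and endothelium 2 were lower (235 to 474 CPM in knockout and 347 to 1002 CPM in wild type), and of 12 myeloid and mast cell genes 2 were higher and 1 lower (147 to 315 CPM in knockout and 147 to 158 CPM in wild type). None of 10 small intestinal genes (297 to 414 CPM in knockout and 356 to 509 CPM in wild type), 5 tested posterior Hox genes (57.7 to 101 CPM in knockout and 36.2 to 95.3 CPM in wild type) or 3 tested hepatocyte genes (42.7 to 50.5 CPM in knockout and 38.8 to 52.4 CPM in wild type) passed. For comparison, 9.43% of all tested genes were higher and 5.97% were lower. The sums are over all genes of a list, tested or not. The part of these markers in the results on the enzymes was not tested.

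**Figure D1:**
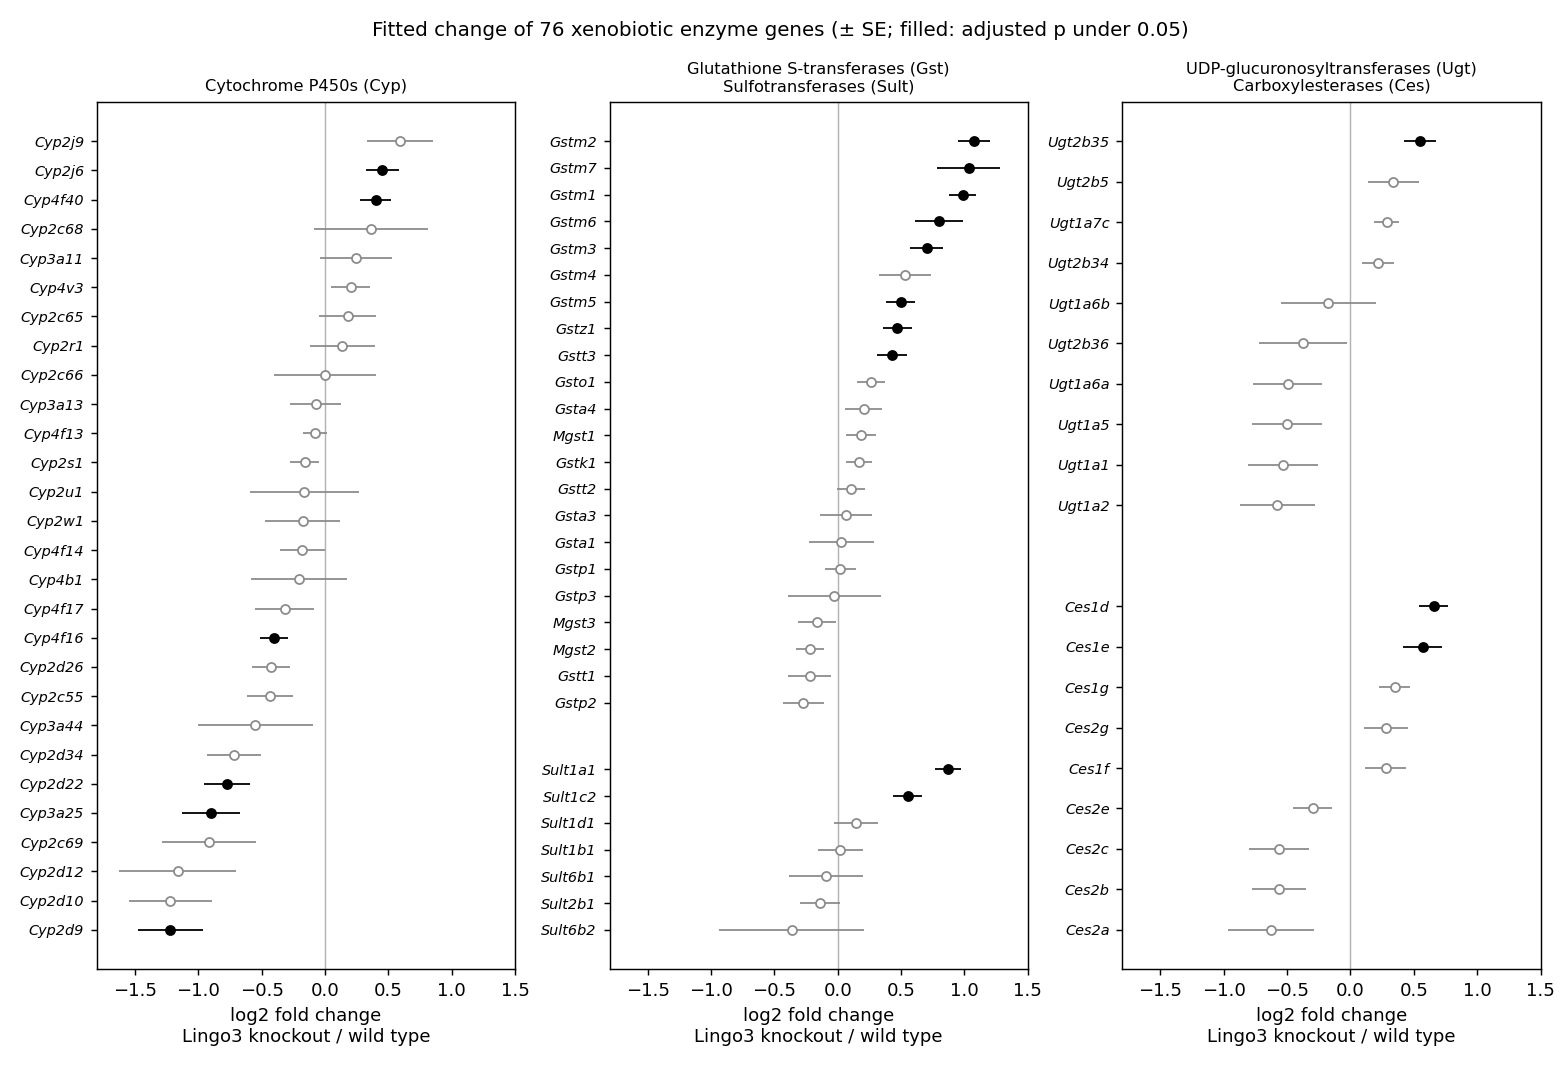
Log2 fold change of each of the 76 genes (x axis, Lingo3 knockout over wild type, ± SE), sorted within families, with filled points for an adjusted p under 0.05. The Gstm genes stand at the top of the Gst family and the Cyp2d genes near the bottom of the Cyp family, with Gstm2 at 1.08 and Cyp2d9 at -1.22.

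Among the P450s the Cyp2d genes stood at the low end. The mouse Cyp2d subfamily, related to the human drug-metabolising enzyme CYP2D6, forms an array on chromosome 15 (GRCm38, 82370527 to 82794294). All 6 of its measured genes had negative log2 fold changes, from -1.22 to -0.43, with a median of -0.97, and in 5 of them the groups did not overlap. For comparison, 16.0% of all tested genes were lower in knockout without overlap. Of the 6, Cyp2d9 and Cyp2d22 passed.

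Cyp2d9, a testosterone hydroxylase of mouse liver, had 10.9, 11.2 and 11.5 CPM in the knockout libraries, against 36.6, 17.8 and 24.2 CPM in the wild type libraries. The knockout libraries lay close together and below every wild type library, and the wild type libraries were further apart. Its log2 fold change was -1.22 ± 0.26 (SE, adjusted p = 0.0225 by edgeR), and its call was lost when any 1 of the knockout libraries was left out (highest adjusted p = 0.109). Cyp2d22, held to be the closest mouse relative of CYP2D6, had 22.8, 13.4 and 19.99 CPM in the knockout libraries, against 35.7, 28.1 and 32.2 CPM in the wild type libraries. The groups did not overlap, and the log2 fold change was -0.77 ± 0.18 (SE, adjusted p = 0.0250 by edgeR). Its call was lost without knockout replicate 3 or wild type replicates 1 or 3 (highest adjusted p = 0.0820).

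The other 4 Cyp2d genes did not pass. Cyp2d34, the most abundant of them, had 157, 194 and 176 CPM in the knockout libraries, against 332, 192 and 344 CPM in the wild type libraries. Wild type replicate 2 lay within the knockout range, and the log2 fold change of -0.72 ± 0.21 was the nearest to the threshold from outside (adjusted p = 0.0529 by edgeR). Cyp2d10 had 14.3, 15.8 and 21.6 CPM in the knockout libraries, against 57.9, 27.6 and 34.2 CPM in the wild type libraries. The groups did not overlap, and wild type replicate 1, the library whose label names DTT, was the highest (log2 fold change -1.22, adjusted p = 0.0649 by edgeR). Wild type replicate 1 was the highest library for Cyp2d22, Cyp2d10, Cyp2d9 and Cyp2d12. Without it the median of the 6 genes was -0.67, and edgeR called 2 lower. These were not the same 2 as with all libraries, since Cyp2d22 lost its call there. DESeq2 called 4 of the 6 lower, as did limma-voom, and edgeR called 0 without knockout replicate 3, 4 without wild type replicate 2 and 1 without knockout replicates 1 or 2 or wild type replicate 3. In the authors' deposited table, made with DESeq2, the adjusted p was 1.18e-05 for Cyp2d10, 2.42e-06 for Cyp2d9 and 0.00218 for Cyp2d34.

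Paralogs limit these values. Of the different 50-base stretches in the annotated transcripts of Cyp2d10, 35.8% also occur in transcripts of another gene, and the share was 21.8% for Cyp2d9, 7.55% for Cyp2d34 and 4.13% for Cyp2d22. Reads from shared stretches may have been left out or given to a paralog. Within 500 kb of the array 28 other genes were tested, among them 2 Cyp2d pseudogenes, and their median log2 fold change was 0.038. The 1 that fell, the miRNA gene Gm27463 (log2 fold change -1.33, adjusted p = 0.0412 by edgeR), lies inside the array and is named after its values were seen. The pseudogenes Cyp2d41-ps and Cyp2d37-ps stood at -0.88 and -0.42 and did not pass.

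**Figure D2:**
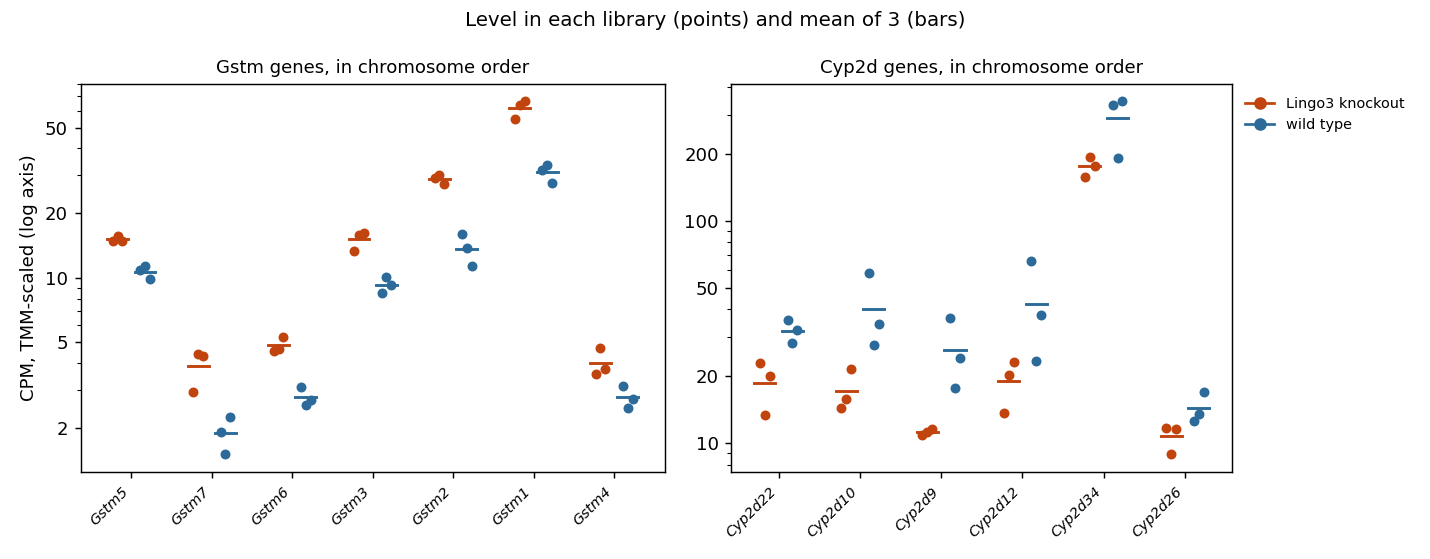
CPM of each Gstm gene (left) and each Cyp2d gene (right) in each library on log axes, with knockout points left of wild type points and bars for the mean of 3. The groups are apart for all 7 Gstm genes, with knockout above, and for 5 of 6 Cyp2d genes, with knockout below; for Cyp2d34 they overlap.

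Cyp2c55 was by far the most abundant of the 76 genes. It encodes a P450 that hydroxylates arachidonic acid and is strongly expressed in mouse colon. Its level per kilobase of exon was 766 ± 179 in knockout and 1034 ± 91.02 in wild type (CPM per kilobase, SD, n = 3 each), and it supplied 63.8% of the summed CPM of the Cyp family. Cyp2c55 had 1738, 1116 and 1729.8 CPM in the knockout libraries, against 1954, 1962 and 2272 CPM in the wild type libraries. All knockout libraries lay below all wild type libraries, with knockout replicate 2 the lowest, but the difference did not pass (log2 fold change -0.43 ± 0.18, adjusted p = 0.128 by edgeR). DESeq2 called it lower (adjusted p = 0.0429), as did edgeR with no filter on low counts (adjusted p = 0.0176), while the edgeR adjusted p was 0.396 without knockout replicate 2. The other 4 Cyp2c genes did not pass either, and ranged from -0.92 for Cyp2c69 to 0.36 for Cyp2c68 on the log2 scale.

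The Cyp3a genes, relatives of the human drug and steroid hydroxylase CYP3A4, had 1 of 4 members lower. Cyp3a25 had 6.49, 3.82 and 6.00 CPM in the knockout libraries, against 7.53, 11.99 and 10.8 CPM in the wild type libraries. The groups did not overlap, and the log2 fold change was -0.90 ± 0.23 (SE, adjusted p = 0.0244 by edgeR). The call was lost without knockout replicates 2 or 3 or wild type replicates 2 or 3 (highest adjusted p = 0.0766). Of the 50-base stretches of Cyp3a25, 26.8% occur in another gene, most of them in Cyp3a59. Cyp3a13, the most abundant Cyp3a gene, had 207, 125 and 183 CPM in the knockout libraries, against 200.1, 145 and 198 CPM in the wild type libraries. The groups overlapped (log2 fold change -0.075, adjusted p = 0.829 by edgeR). Knockout replicate 2 was the lowest of the 6 libraries for Cyp3a13, Cyp3a25, Cyp3a44 and Cyp4b1 as well as for Cyp2c55.

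Of the Cyp4 genes, fatty acid and eicosanoid hydroxylases, 1 of 7 rose, 1 fell and 5 did not pass. Cyp4f16 had 31.8, 29.9 and 30.9 CPM in the knockout libraries, against 46.1, 35.4 and 40.7 CPM in the wild type libraries. Its 3 knockout values lay within a narrow range below wild type (log2 fold change -0.40 ± 0.11, adjusted p = 0.0282 by edgeR). Cyp4f40, in the same array on chromosome 17, had 21.2, 21.9 and 23.2 CPM in the knockout libraries, against 13.7, 18.2 and 18.1 CPM in the wild type libraries. It was higher in every knockout library and passed only narrowly (log2 fold change 0.40 ± 0.12, adjusted p = 0.0457 by edgeR). Cyp4f16 lost its call without knockout replicates 2 or 3 or wild type replicates 1 or 3 (highest adjusted p = 0.0980), and Cyp4f40 lost it when any 1 library other than wild type replicate 2 was left out (highest adjusted p = 0.140). Of the 50-base stretches of Cyp4f16, 17.4% occur in another gene, most of them in Cyp4f37.

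Both Cyp2j genes of the comparison table were higher in each knockout library than in any wild type library. For comparison, 19.7% of all tested genes were higher without overlap. Cyp2j13, tested but not in that table, overlapped between the groups (log2 fold change 0.20, adjusted p = 0.815 by edgeR). Cyp2j6 had 34.7, 33.7 and 44.3 CPM in the knockout libraries, against 24.1, 31.03 and 26.8 CPM in the wild type libraries, a log2 fold change of 0.45 ± 0.13 (SE, adjusted p = 0.0351 by edgeR). The call of Cyp2j6 was lost without knockout replicate 3 or wild type replicates 1 or 3 (highest adjusted p = 0.133). Cyp2j9 was at 1.97 ± 0.408 CPM in knockout and 1.32 ± 0.135 CPM in wild type (SD, n = 3 each) and did not pass (log2 fold change 0.59, adjusted p = 0.148 by edgeR). The classical dioxin-induced genes of family 1 are not in the comparison table and lay at or near the limit of detection. Cyp1a1 had 6, 1 and 2 counts in the knockout libraries, against 2, 9 and 3 counts in the wild type libraries, and Cyp1b1 had no count in any library. Of 89 further symbols of these families in the count table but not in the comparison table, 35 had no count, 10 could be tested, and 0 were called by edgeR. At an unadjusted p under 0.05 Cyp2b10 was higher (log2 fold change 1.23) and Cyp4f18 lower (-1.07), both named after their values were seen, and DESeq2 gave no adjusted p for the 10 genes. On the TMM scale, a floor of 3 counts corresponds to 0.154 to 0.240 CPM in the knockout libraries. In the wild type libraries it corresponds to 0.113 to 0.140 CPM.

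The carboxylesterases divided by subfamily. Ces1 and Ces2 genes form separate arrays on chromosome 8 (93166068 to 93337308 and 104734003 to 104969537). The 4 measured Ces1 genes all had positive log2 fold changes (median 0.46) and 2 of them rose. Of the 5 Ces2 genes 4 had negative values (median -0.56), and 0 passed by edgeR, with 2 lower at an unadjusted p under 0.05 and 2 lower by DESeq2. Whether Ces1 and Ces2 differ from each other was not tested.

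Ces1d, a triglyceride hydrolase of the endoplasmic reticulum, had 56.9, 45.9 and 55.8 CPM in the knockout libraries, against 30.3, 36.8 and 33.3 CPM in the wild type libraries. The groups were clearly apart, and the log2 fold change was 0.66 ± 0.11 (SE, adjusted p = 0.00394 by edgeR), a call kept when any 1 library was left out. Ces1e, also called egasyn, which holds beta-glucuronidase in the endoplasmic reticulum, had 7.83, 9.60 and 9.36 CPM in the knockout libraries, against 5.42, 5.92 and 6.64 CPM in the wild type libraries. It was higher in every knockout library (log2 fold change 0.57 ± 0.15, adjusted p = 0.0273 by edgeR), but the call was lost without knockout replicates 2 or 3 or wild type replicates 1 or 2 (highest adjusted p = 0.0962). Ces1g stood at 43.5 ± 5.10 CPM in knockout and 34.1 ± 4.56 CPM in wild type (SD, n = 3 each) without overlap and did not pass (log2 fold change 0.35, adjusted p = 0.0733 by edgeR). Ces1f, at 0.28 on the log2 scale, overlapped between groups.

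The Ces2 genes were the more abundant ones. Ces2a and Ces2c, lipid and drug ester hydrolases of the intestine, had levels per kilobase of 113 ± 39.5 in knockout and 176 ± 50.7 in wild type for Ces2a, and of 94.3 ± 25.6 in knockout and 139 ± 31.5 in wild type for Ces2c (CPM per kilobase, SD, n = 3 each). Ces2a had 336, 162 and 305 CPM in the knockout libraries, against 519, 284 and 439 CPM in the wild type libraries. Knockout replicate 2 and wild type replicate 2 were the lowest of their groups, and wild type replicate 2 lay among the knockout libraries (log2 fold change -0.63 ± 0.34, adjusted p = 0.264 by edgeR). Ces2c had 268, 152 and 229.5 CPM in the knockout libraries, against 385, 242 and 332 CPM in the wild type libraries. The same 2 libraries were low there, and the groups overlapped (log2 fold change -0.56 ± 0.24, adjusted p = 0.148 by edgeR). Ces2b and Ces2e stood at -0.56 and -0.30 on the log2 scale, also with overlap, and Ces2g at 0.28. Of the 50-base stretches of Ces2c, 36.1% occur in another gene, most of them in the neighbouring pseudogene Ces2d-ps.

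**Figure D3:**
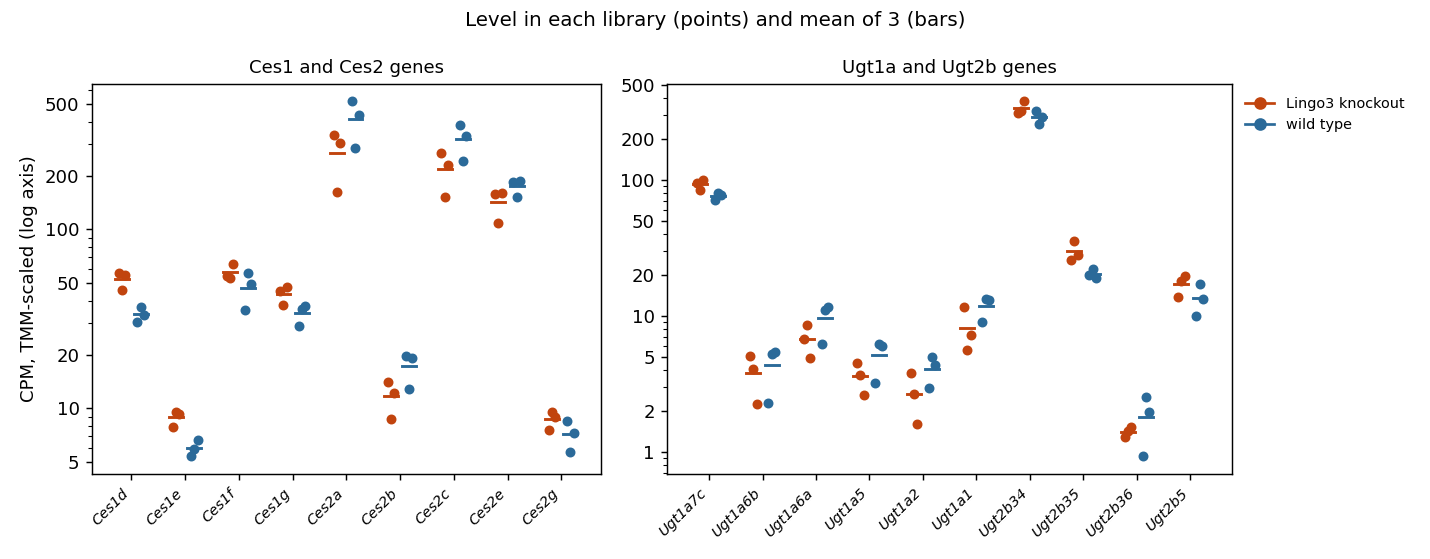
CPM of the Ces1 and Ces2 genes (left) and of the Ugt1a and Ugt2b genes (right) in each library on log axes, knockout points left of wild type points, bars for the mean of 3. Knockout means lie above wild type means for the 4 Ces1 genes and below them for Ces2a, Ces2b, Ces2c and Ces2e, where single libraries overlap.

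Of the conjugating enzymes, the mu class of glutathione S-transferases had 6 of 7 genes higher in knockout. These cytosolic enzymes join glutathione to electrophiles. Their genes form an array of 149 kb on chromosome 3 (107895821 to 108044894), in the order Gstm5, Gstm7, Gstm6, Gstm3, Gstm2, Gstm1 and Gstm4. All 7 were higher in each knockout library than in any wild type library, where 19.7% of all tested genes were higher without overlap, and 6 of them passed. The median log2 fold change was 0.80 and the range 0.50 to 1.08. The summed level of the array was 123, 139 and 138 CPM in the knockout libraries, against 75.4, 75.3 and 65.8 CPM in the wild type libraries. DESeq2 and limma-voom each called 6 of the 7 higher. Without knockout replicate 2, knockout replicate 3 or wild type replicate 2, edgeR called 4.

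Gstm1 had 54.7, 63.8 and 66.3 CPM in the knockout libraries, against 31.8, 33.6 and 27.8 CPM in the wild type libraries. It is the most abundant Gstm gene, its level per kilobase was 41.8 ± 4.12 in knockout and 21.1 ± 2.03 in wild type (CPM per kilobase, SD, n = 3 each), and the log2 fold change was 0.99 ± 0.11 (SE, adjusted p = 0.000785 by edgeR). Gstm2 had 29.1, 30.2 and 27.2 CPM in the knockout libraries, against 16.04, 13.7 and 11.3 CPM in the wild type libraries. The log2 fold change of 1.08 ± 0.13 (SE, adjusted p = 0.000808 by edgeR) was the highest of the 76 genes. The knockout values of both genes were all above the highest wild type value. Gstm3 had 13.4, 15.9 and 16.2 CPM in the knockout libraries, against 8.51, 10.1 and 9.24 CPM in the wild type libraries, with a log2 fold change of 0.70 ± 0.13 (SE, adjusted p = 0.00512 by edgeR). In all 3 genes the values of a group lay close together, and the call was kept when any 1 library was left out (highest adjusted p = 0.0105, 0.0105 and 0.0317).

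Gstm4, Gstm5, Gstm6 and Gstm7 make up the rest of the array. Gstm5 averaged 15.1 ± 0.506 CPM in knockout and 10.7 ± 0.782 CPM in wild type (SD, n = 3 each), a log2 fold change of 0.50 ± 0.11 (SE, adjusted p = 0.0139 by edgeR). Gstm6 averaged 4.84 ± 0.380 CPM in knockout and 2.78 ± 0.273 CPM in wild type (SD, n = 3 each) and rose by 0.80 on the log2 scale (adjusted p = 0.0160 by edgeR). Gstm7 averaged 3.89 ± 0.824 CPM in knockout and 1.89 ± 0.374 CPM in wild type (SD, n = 3 each) and rose by 1.03 (adjusted p = 0.0173 by edgeR). Their calls were less firm, with the highest adjusted p on leaving out 1 library at 0.0517 (without knockout replicate 2), 0.0625 (lost without knockout replicate 3 or wild type replicate 2) and 0.0717 (lost without knockout replicates 2 or 3 or wild type replicate 2). Gstm4 averaged 4.01 ± 0.623 CPM in knockout and 2.78 ± 0.325 CPM in wild type (SD, n = 3 each) and did not pass (log2 fold change 0.53 ± 0.21, adjusted p = 0.103 by edgeR). Shared 50-base stretches made up 28.8% of the transcripts of Gstm3, 18.9% of Gstm1 and 5.65% of Gstm2. Some of the reads of Gstm1 and Gstm3 may therefore have been left out or given to a copy. Within 500 kb of the array 22 other genes were tested, 1 rose and 2 fell, and their median log2 fold change was 0.025.

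Promoter windows of 300 bases, from 250 before to 50 after the start, were read from RefSeq (GRCm38.p6) for all 7 Gstm genes. They were searched on both strands for GCGTG, the core bound by the aryl hydrocarbon receptor, and for TGACNNNGC, the core of the antioxidant response element bound by Nrf2. GCGTG was found in 2 of the 7 windows and in 32.4% of all 32851 windows in the table, and TGACNNNGC in 1 of 7 and in 12.4%. A match is a description of these letters and not a site. The windows of the top-ranking genes Gstm2 and Gstm1 and of Gstm5, the 1 that held both motifs, are shown with that of Cyp2d10, from the array that stood low, which held neither. Capitals mark motif matches, and in Gstm5 both GCGTG matches are on the other strand, where they read CACGC, and the second lies inside the TGACNNNGC match. Gstm2 is chr3:107986371-107986670 and Gstm1 chr3:108017924-108018223, both on the minus strand, Gstm5 is chr3:107895604-107895903 on the plus strand, and Cyp2d10 is chr15:82407145-82407444 on the minus strand.
Gstm2: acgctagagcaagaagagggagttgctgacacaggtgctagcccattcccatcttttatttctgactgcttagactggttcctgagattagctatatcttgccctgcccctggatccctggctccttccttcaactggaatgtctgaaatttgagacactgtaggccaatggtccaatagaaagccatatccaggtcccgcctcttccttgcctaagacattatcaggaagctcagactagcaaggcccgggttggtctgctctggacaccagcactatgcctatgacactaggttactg
Gstm1: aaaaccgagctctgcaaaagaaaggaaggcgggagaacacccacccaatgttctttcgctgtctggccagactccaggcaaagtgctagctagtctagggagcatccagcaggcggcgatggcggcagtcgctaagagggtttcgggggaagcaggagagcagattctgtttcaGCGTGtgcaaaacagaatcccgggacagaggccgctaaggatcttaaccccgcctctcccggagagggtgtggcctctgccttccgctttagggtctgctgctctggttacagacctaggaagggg
Gstm5: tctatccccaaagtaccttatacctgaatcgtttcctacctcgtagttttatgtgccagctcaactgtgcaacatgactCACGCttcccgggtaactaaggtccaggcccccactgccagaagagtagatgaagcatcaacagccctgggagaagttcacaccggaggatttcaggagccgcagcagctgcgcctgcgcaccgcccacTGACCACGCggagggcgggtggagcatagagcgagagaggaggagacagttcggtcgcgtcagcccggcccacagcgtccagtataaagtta
Cyp2d10: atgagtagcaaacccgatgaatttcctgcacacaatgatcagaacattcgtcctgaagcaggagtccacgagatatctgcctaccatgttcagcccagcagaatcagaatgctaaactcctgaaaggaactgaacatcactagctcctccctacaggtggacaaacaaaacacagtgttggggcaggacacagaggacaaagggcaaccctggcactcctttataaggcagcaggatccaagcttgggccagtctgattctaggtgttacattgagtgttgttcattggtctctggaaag
Over all 60 genes of the 5 families with a window near their annotated start, GCGTG was in 14 windows (23.3%) and TGACNNNGC in 6. None of the 6 Ces windows held either, and neither did the 2 Cyp2d windows.

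Outside the mu class, 2 of 15 glutathione S-transferase genes rose and 0 fell, with a median log2 fold change of 0.065 (-0.0047 with upper-quartile factors). Gstz1, the maleylacetoacetate isomerase of tyrosine breakdown, had 16.5, 17.7 and 18.6 CPM in the knockout libraries, against 11.1, 13.3 and 13.5 CPM in the wild type libraries. It was higher without overlap (log2 fold change 0.47 ± 0.12, adjusted p = 0.0199 by edgeR), and lost its call without knockout replicates 2 or 3 (highest adjusted p = 0.0768). Gstt3, of the theta class, had 18.3, 15.96 and 20.2 CPM in the knockout libraries, against 14.3, 13.5 and 12.6 CPM in the wild type libraries. It too was higher without overlap (log2 fold change 0.43 ± 0.12, adjusted p = 0.0297 by edgeR). Its call was lost without knockout replicates 1 or 3 or wild type replicates 2 or 3 (highest adjusted p = 0.114), and 12.5% of its 50-base stretches occur in another gene. The theta genes Gstt1, Gstt2 and Gstt3 lie on chromosome 10 at a distance of 5.00 to 5.05 Mb from Lingo3, and Gstt1 and Gstt2 did not pass (log2 fold changes -0.22 and 0.10).

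The most abundant glutathione S-transferases per kilobase were Mgst3, Gsto1 and Mgst1, and none of the 3 passed. Mgst3, a microsomal enzyme that joins glutathione to a leukotriene and reduces lipid peroxides, had 148, 166 and 222 CPM in the knockout libraries, against 191, 182 and 227 CPM in the wild type libraries. The groups overlapped (log2 fold change -0.16, adjusted p = 0.497 by edgeR). Gsto1, of the omega class, which reduces dehydroascorbate, was higher in every knockout library at 209 ± 9.77 CPM in knockout and 174 ± 16.3 CPM in wild type (SD, n = 3 each), with 0.26 on the log2 scale (adjusted p = 0.118 by edgeR), and did not pass with all libraries. Mgst1 stood at 0.19 on the log2 scale. Gstp1, the pi class enzyme, averaged 51.8 ± 8.45 CPM in knockout and 51.00 ± 4.81 CPM in wild type (SD, n = 3 each), a log2 fold change of 0.019 ± 0.12 (SE, adjusted p = 0.932 by edgeR). Gstp2 averaged 10.3 ± 1.52 CPM in knockout and 12.5 ± 2.35 CPM in wild type (SD, n = 3 each) and had the lowest log2 fold change of the family (log2 fold change -0.27 ± 0.16, adjusted p = 0.274 by edgeR). The Gstp1 and Gstp2 values are uncertain, since 33.7% and 54.3% of their 50-base stretches are shared, mostly with each other.

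Of the sulfotransferases, which transfer sulfate from the donor PAPS, Sult1a1 and Sult1c2 rose. Sult1a1, the phenol sulfotransferase, had 146, 163 and 159 CPM in the knockout libraries, against 80.8, 82.9 and 92.7 CPM in the wild type libraries. Its knockout values all lay well above the highest wild type value, and the log2 fold change was 0.87 ± 0.10 (SE, adjusted p = 0.000785 by edgeR). Sult1c2 had 20.8, 22.2 and 26.5 CPM in the knockout libraries, against 14.6, 16.02 and 16.6 CPM in the wild type libraries. Its groups were also apart (log2 fold change 0.55 ± 0.12, adjusted p = 0.00934 by edgeR). Both calls were kept when any 1 library was left out, with a highest adjusted p of 0.0105 and 0.0460.

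The most abundant sulfotransferase was Sult1d1, which sulfates catecholamines in mice, with 225, 255.9 and 365 CPM in the knockout libraries, against 238, 238 and 289 CPM in the wild type libraries. Knockout replicate 3 was high and the groups overlapped (log2 fold change 0.14, adjusted p = 0.604 by edgeR). Sult1b1, its neighbour on chromosome 5, known for sulfation of thyroid hormone, averaged 108 ± 25.1 CPM in knockout and 107 ± 16.95 CPM in wild type (SD, n = 3 each), with 0.020 on the log2 scale (adjusted p = 0.951 by edgeR). Sult2b1, which sulfates sterols, stood at -0.14 on the log2 scale. Sult6b1 was near 1 CPM in each library, and Sult6b2 had 1.24, 1.22 and 1.20 CPM in the knockout libraries, against 0.608, 0.943 and 3.17 CPM in the wild type libraries. Its knockout values lay within the wild type range (log2 fold change -0.36, adjusted p = 0.707 by edgeR).

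Among the glucuronosyltransferases only Ugt2b35 passed. Ugt2b enzymes conjugate steroids and bile acids. Ugt2b35 had 25.8, 35.3 and 28.1 CPM in the knockout libraries, against 19.8, 22.1 and 18.95 CPM in the wild type libraries. It was higher without overlap (log2 fold change 0.55 ± 0.12, adjusted p = 0.0133 by edgeR), and lost its call without knockout replicate 2 (adjusted p = 0.0530). Its neighbour Ugt2b34 supplied 66.6% of the summed CPM of the family and did not pass, with 312, 318 and 377 CPM in the knockout libraries, against 321, 257 and 288 CPM in the wild type libraries (log2 fold change 0.22, adjusted p = 0.265 by edgeR).

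The Ugt1a genes share their last exons and differ in the first one, so that between 892 and 2142 bases of each of the 6 measured genes belong to it alone. How reads in the shared exons were counted is not stated in the labels. Ugt1a7c, the most abundant, averaged 92.8 ± 8.26 CPM in knockout and 76.05 ± 4.29 CPM in wild type (SD, n = 3 each). It was higher in knockout without overlap and did not pass (log2 fold change 0.29 ± 0.10, adjusted p = 0.0724 by edgeR). Ugt1a1, which conjugates bilirubin, had 11.6, 5.57 and 7.20 CPM in the knockout libraries, against 8.98, 13.4 and 12.97 CPM in the wild type libraries. The groups overlapped (log2 fold change -0.53 ± 0.27, adjusted p = 0.226 by edgeR). The log2 fold changes of the other 4 were -0.58 (Ugt1a2), -0.50 (Ugt1a5), -0.49 (Ugt1a6a) and -0.18 (Ugt1a6b), and none of them passed with all libraries. For all but Ugt1a7c the log2 fold change was negative (median of the 6 genes -0.50), though that of Ugt1a6b turned to 0.10 with library totals as the only scaling and was also positive without knockout replicate 3, wild type replicate 2 or wild type replicate 3, and in all 6 wild type replicate 1 was the lowest wild type library. Ugt1a1 was called lower without knockout replicate 1 and Ugt1a6a without wild type replicate 1. The Ugt median of -0.27 was -0.55 without wild type replicate 1 and -0.0028 without wild type replicate 2.

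Summed over each family, levels overlapped between the groups for Ces and Sult and did not for Cyp, Gst and Ugt. The Cyp sum was 2722, 1899 and 2694 CPM in the knockout libraries, against 3181, 2905 and 3476 CPM in the wild type libraries. All knockout sums lay below all wild type sums. Without Cyp2c55 the Cyp sum was 910.3 ± 111 CPM in knockout and 1125 ± 157 CPM in wild type (SD, n = 3 each), and these groups overlapped. The Ces sum, 809 ± 194 CPM in knockout and 1053 ± 199 CPM in wild type, overlapped as well. The Gst sum was 828, 876 and 967 CPM in the knockout libraries, against 795, 803 and 825 CPM in the wild type libraries, the Ugt sum 502 ± 37.1 CPM in knockout and 435 ± 14.5 CPM in wild type, and the Sult sum 585 ± 106 CPM in knockout and 480.2 ± 48.9 CPM in wild type. For Gst and Ugt all knockout sums lay above all wild type sums, and for Sult the sums overlapped. The gap for Gst was narrow, with knockout replicate 1 at 828 CPM and wild type replicate 3 at 825 CPM, and sums with other scalings were not made. These are sums over genes that moved in different directions, and they were not tested.

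**Figure D4:**
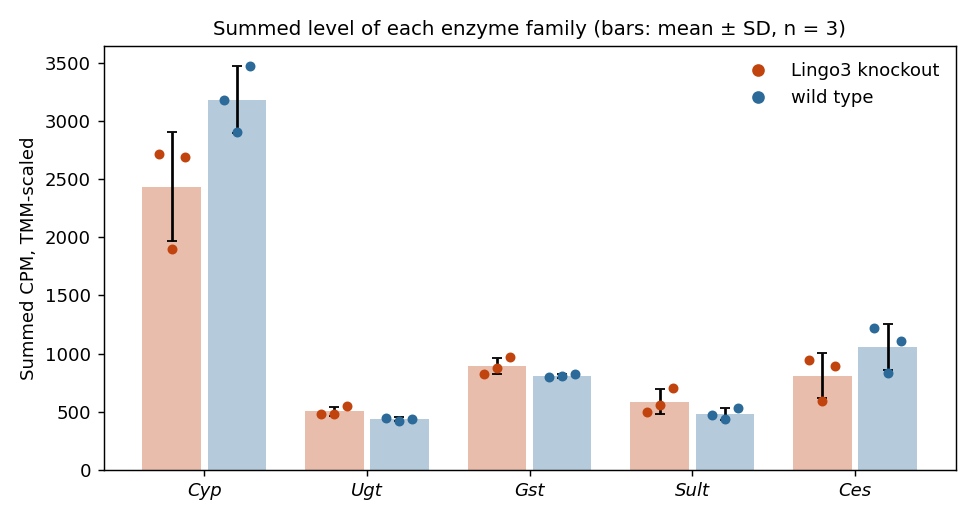
Summed TMM-scaled CPM of each family in each library (points), with bars for the mean and error bars for the SD of 3, knockout left of wild type. The Cyp family takes the largest share in both genotypes, with knockout replicate 2 the lowest point at 1899 CPM.

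Libraries of 1 genotype differed more for some families than for others. The median coefficient of variation was 21.9% in knockout and 16.8% in wild type for Cyp genes, 22.2% and 25.9% for Ugt genes, 11.7% and 19.4% for Ces genes, 12.8% and 14.0% for Sult genes and 11.2% and 10.9% for Gst genes, beside 12.7% and 11.3% for all tested genes. Knockout replicate 2 was the lowest knockout library for 7 of 9 Ces genes and 14 of 28 Cyp genes, beside 34.2% of all tested genes. Wild type replicate 1 was the lowest wild type library for 8 of 10 Ugt genes, beside 35.7% of all tested genes.

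Genes that supply these enzymes were counted next. Of 18 genes for electron donors, heme, UDP-glucuronate, PAPS and glutathione, 2 rose, 0 fell and 16 did not pass (median 0.089). That is 11.1% higher, close to the 9.43% of all tested genes. Gsr, the glutathione reductase, had 66.5, 81.5 and 78.7 CPM in the knockout libraries, against 54.4, 50.97 and 48.7 CPM in the wild type libraries. The groups were apart (log2 fold change 0.56 ± 0.10, adjusted p = 0.00538 by edgeR). Slc35b2, which carries PAPS into the Golgi, rose by 0.42 (adjusted p = 0.00934 by edgeR). Both calls were kept when any 1 library was left out. Por, the reductase that feeds all microsomal P450s, had 101, 62.3 and 83.2 CPM in the knockout libraries, against 109, 99.1 and 99.6 CPM in the wild type libraries. Knockout replicate 2 was again low, and the groups overlapped (log2 fold change -0.32 ± 0.15, adjusted p = 0.181 by edgeR). Ugdh, which makes UDP-glucuronate, averaged 226 ± 35.9 CPM in knockout and 281 ± 26.4 CPM in wild type (SD, n = 3 each), with -0.31 on the log2 scale (adjusted p = 0.135 by edgeR), and Papss2, which makes PAPS, 213 ± 33.7 CPM in knockout and 207 ± 13.4 CPM in wild type (SD, n = 3 each), with 0.040 on the log2 scale (adjusted p = 0.854 by edgeR).

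Of 20 sensors and epithelial transcription factors, 19 were tested, 2 rose, 3 fell and 14 did not pass (median log2 fold change -0.052, or 0.24 with library totals only). That is 10.5% higher and 15.8% lower, beside 9.43% and 5.97% of all tested genes. Nr1i2, the pregnane X receptor, had 45.2, 48.5 and 50.5 CPM in the knockout libraries, against 63.2, 64.2 and 69.8 CPM in the wild type libraries. The groups were apart, the log2 fold change was -0.45 ± 0.092 (SE, adjusted p = 0.00844 by edgeR), and the call was kept when any 1 library was left out. Nfe2l2, which encodes Nrf2, had 100.3, 102 and 110.0 CPM in the knockout libraries, against 77.7, 85.8 and 77.98 CPM in the wild type libraries. It rose by 0.37 (adjusted p = 0.0219 by edgeR), and the call was lost without knockout replicates 2 or 3 or wild type replicate 3 (highest adjusted p = 0.0806). Ahr averaged 13.98 ± 1.18 CPM in knockout and 13.6 ± 1.06 CPM in wild type (SD, n = 3 each) and its log2 fold change was 0.039 ± 0.12 (adjusted p = 0.850 by edgeR). Its repressor Ahrr was low, at 1.91, 0.849 and 1.68 CPM in the knockout libraries, against 2.43, 3.09 and 3.73 CPM in the wild type libraries. It fell by 1.07 on the log2 scale (adjusted p = 0.0352 by edgeR), a call lost without knockout replicates 2 or 3 or wild type replicates 2 or 3 (highest adjusted p = 0.119). Hnf4g rose by 0.56 (adjusted p = 0.0111 by edgeR), and Vdr, the vitamin D receptor, fell by 0.35 (adjusted p = 0.0381 by edgeR), with the call of Vdr lost without each library in turn (highest adjusted p = 0.157).

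Of 36 tested enzymes of other oxidation, reduction and hydrolysis families, 8 rose and 2 fell (median 0.19). That is 22.2% higher and 5.56% lower, beside 9.43% and 5.97% of all tested genes. Aldh1b1, a mitochondrial aldehyde dehydrogenase, had 182, 190.2 and 192 CPM in the knockout libraries, against 103, 108 and 99.5 CPM in the wild type libraries, and its log2 fold change was 0.86 ± 0.10 (SE, adjusted p = 0.000785 by edgeR). With log2 fold changes in parentheses, the aldehyde reductase Akr1a1 (0.47), the arylacetamide deacetylase Aadac (0.56), Adh5 (0.49), the butyrylcholinesterase Bche (0.49), Aldh3a2 (0.44) and the lactonases Pon2 (0.42) and Pon3 (0.42) rose, and the carbonyl reductase Cbr1 (-0.43) and the xanthine dehydrogenase Xdh (-0.36) fell. Of these 10 genes, Aldh1b1 and Aldh3a2 kept their call when any 1 library was left out, Cbr1 lost it without 4 of the libraries in turn (knockout replicates 1 or 2, wild type replicates 2 or 3), and the other 7 lost it without knockout replicate 3, for Xdh, Aadac and Akr1a1 without others as well. The arsenite methyltransferase As3mt also rose, by 0.73 on the log2 scale (adjusted p = 0.00347 by edgeR), and kept its call when any 1 library was left out. Of 7 tested P450s outside families 1 to 4, the lanosterol demethylase Cyp51 (0.62), the oxysterol hydroxylase Cyp39a1 (0.78) and Cyp20a1 (0.77) rose, and the thromboxane synthase Tbxas1 (-0.65), a gene of platelets and macrophages, fell. In this list of 7 genes that is 42.9% higher and 14.3% lower. The 3 that rose kept their call when any 1 library was left out, and Tbxas1 lost it without knockout replicate 3 or wild type replicate 3.

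Of the export pumps and carriers, the conjugate pump Abcc2 had 5.41, 3.55 and 4.64 CPM in the knockout libraries, against 6.50, 7.62 and 7.85 CPM in the wild type libraries. It fell by 0.69 (adjusted p = 0.0268 by edgeR), as did Abcc5 by 0.67 and the ergothioneine carrier Slc22a4 by 0.99. Most tested genes of this list did not pass, and not all of its genes are reported here. Of all tested genes 5.97% were lower in knockout. The calls of Abcc2 and Abcc5 were lost without knockout replicates 2 or 3 or wild type replicates 2 or 3, and that of Slc22a4 without each library in turn (highest adjusted p = 0.103, 0.140 and 0.120). Abcb1a, which encodes an export pump for many drugs, averaged 562 ± 109 CPM in knockout and 718 ± 59.1 CPM in wild type (SD, n = 3 each) and did not pass (log2 fold change -0.35, adjusted p = 0.142 by edgeR).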

How the data were processed

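Per the labels, RNA of 3 Lingo3-/- and 3 wild type libraries was sequenced. The authors deposited raw read counts per gene (Trimmomatic 0.39, STAR, HTSeq and GRCm38, per the submitters' processing notes). The strand setting and the treatment of reads that match several genes are not stated in the labels. Reads that HTSeq set aside as not unique made 32.2 to 36.9% of all lines counted, and its summary lines stayed out of library sizes and tests. The authors' deposited comparison table, made with DESeq2 per the submitters' processing notes, holds normalized values (a signal: counts over 1 size factor per library), log2 fold changes, a Wald statistic (a score, not used further), and p-values.

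Counts were fitted with edgeR 4.0.16 in R 4.3.3 (robust quasi-likelihood test, 2-sided, TMM factors, genes with at least 10 counts in enough libraries and 15 in all, Benjamini-Hochberg over 16856 genes, threshold 0.05). Alternatives used DESeq2 1.42.0, limma-voom 3.58.1, other scalings and filters, a replicate block, and all libraries but 1. The design had 1 comparison, and the script was tested on simulated counts. The smaller knockout libraries, from 11868000 counts, give less precise values than the wild type libraries, from 25010618. Counting error alone sets the floor of 3 counts. Genes were placed with GENCODE M21 (98.2% of identifiers matched). Levels per kilobase use the part of a gene's exons that overlaps no other gene on the same strand. Named genes were those called, the 3 most abundant and the highest and lowest fold change of each family, those nearest the threshold and textbook examples, with neighbours of these named beside them. The members, gene lists and tests were chosen with earlier results of these data known. Same-numbered replicates did not deviate together, per the check in the closing section, which cannot decide whether they were paired. Some genes of the pathway lists are not reported here.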

Additional observations from a re-analysis of the deposited data

How the results depend on the processing

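The 15 genes that rose numbered 28 with library totals only, where 32.1% of all genes rose and the median over all genes shifted by 0.28, and 8 to 13 when 1 library was left out. The 4 genes that fell numbered 9 with DESeq2, 12 with no filter on low counts (5.75% of all genes) and 0 to 6 when 1 library was left out. By family, library totals gave 4 Cyp, 3 Ugt, 14 Gst and 5 Ces genes higher. The Cyp genes higher were 0 with upper-quartile factors, 1 with DESeq2, 1 with limma-voom, 1 at a mean CPM of at least 1, and 0 to 2 leaving out 1 library. The Cyp genes lower were 7 with DESeq2, 8 with no filter and 0 to 5 leaving out 1 library. Leaving out 1 library gave 4 to 9 Gst genes higher, 0 to 1 Ugt genes higher, 0 to 1 Ugt genes lower, 1 to 2 Ces genes higher and 0 to 1 Ces genes lower. With no filter 2 Ugt and 2 Ces genes were lower, and with DESeq2 2 Ces genes. RLE size factors and removal of the mitochondrially encoded genes moved none of the 12 counts by over 1.5 times. The cause of these shifts was not tested, and leaving out a library also lowers the number of samples.

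Same-numbered libraries did not deviate together. With 3 libraries per group, this check cannot decide whether the replicates were paired. The deviations of same-numbered libraries correlated at -0.010, -0.12 and -0.10, and knockout replicates 1, 2 and 3 correlated best with wild type replicates 2, 3 and 1. With the replicate block 14 of the 76 genes were higher and 6 lower, beside 7.08% and 5.15% of all genes. Of the Ces genes, 3 were lower there.

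Log2 fold changes close to 0 changed sign. Cyp3a13 was 0.21 with library totals and -0.23 to 0.12 leaving out 1 library. Gstp1 was -0.054 with upper-quartile factors, -0.00036 at a mean CPM of at least 1, and -0.12 to 0.12 leaving out 1 library. Gstp2 was 0.0093 and Mgst3 0.11 with library totals. Sult1b1 was -0.054 with upper-quartile factors, and -0.17 to 0.17 leaving out 1 library. Sult1d1 was -0.081 to 0.29 leaving out 1 library, and Sult6b2 was 0.000765 with limma-voom and -0.71 to 0.65 leaving out 1 library. Depth limits the genes near 1 CPM.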
